A study of Mus musculus with 16 samples.

Results

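In mouse dorsal hippocampus, 57 of 16907 measured genes were lower with a viral Dnmt3a2 transgene than with the control virus on both sampling days. Symbols of potassium channel (Kcn), protocadherin (Pcdh), ribosomal protein (Rpl, Rps) and respiratory complex I (Nduf) genes, and a list of single named genes, were set aside and are not counted. A gene was a member when its highest value among the 4 Dnmt3a2 libraries lay under its lowest value among the 4 Control libraries at 1 day, and again at 5 days. The same rule without the set-aside symbols gave 66 genes, and 9 of them were dropped (Lpl, Kcnab3, Hkdc1, Grb10, Extl1, Acta1, C1ql2, Doc2a and Ier5l). The members were thus chosen by the measured values of both days, so their differences between the virus groups are a description and carry no test. Of the 57 genes, 49 are annotated as protein-coding and 8 as non-coding or processed transcripts.

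Dnmt3a2 is the shorter protein made from the Dnmt3a gene, a DNA methyltransferase that adds methyl groups to cytosines, mostly where a cytosine is followed by a guanine (a CpG). In neurons the short form is known to be induced by activity, and its level in the hippocampus has been tied to how well mice keep a fear memory. Methylation in a promoter usually goes with a silent gene, whereas methylation within a gene body does not, and the present libraries measured RNA, not methylation.

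All 16 libraries came from dorsal hippocampus of mice injected there with a recombinant adeno-associated virus (rAAV), which delivered either GFP (Control) or exogenous Dnmt3a2. Every group, Control included, was trained in contextual fear conditioning 3 weeks after injection, a task in which mice learn to fear a chamber, and was sampled 1 day or 5 days after training. The 4 groups, Control_1d, Dnmt3a2_1d, Control_5d and Dnmt3a2_5d, held 4 libraries each. The promoter and serotype of the virus, and the strain, age and sex of the mice, go unnamed in the labels, which also do not tell whether libraries stem from different mice; p-values therefore measure the spread between these libraries.

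Library totals were 28642366 to 29959491 estimated counts. Dnmt3a itself was at 33.6 to 35.4 CPM (counts after scaling for library size) in Control_1d and 623 to 1153 CPM in Dnmt3a2_1d, and at 32.7 to 37.7 CPM in Control_5d and 1015 to 1249 CPM in Dnmt3a2_5d (exact two-sided permutation test, p = 0.0286 on each day, the smallest that 70 regroupings can give). All 14 dentate granule cell markers, all 9 CA1 markers and all 12 CA3 and CA2 markers listed were measured. The summed CPM of the dentate granule markers overlapped at 1 day (929 to 1181 in Control, 970 to 1132 with Dnmt3a2) but not at 5 days, when it was 1034 to 1168 in Control_5d and 973 to 1027 in Dnmt3a2_5d. The markers include C1ql2, which met the no-overlap rule on both days and was dropped as a set-aside symbol. This sum and the marker counts thus partly reuse values of the rule and carry no test. Of these 14 markers, 8 had log2 changes below 0 at 5 days (median -0.13), edgeR called 1 lower and 1 higher, and 7 had an unadjusted p under 0.05; the part of this in the members' values was not tested. The CA1 sum and the CA3 and CA2 sum overlapped between Control and Dnmt3a2 on both days. Some libraries stood apart in tissue makeup: the summed CPM of 12 choroid plexus markers was 887 in Dnmt3a2_1d replicate 1 and 1415 in Dnmt3a2_5d replicate 1, 134 in Dnmt3a2_1d replicate 3 and 214 in Control_5d replicate 3, and 44.7 to 74.3 in the other libraries. The summed CPM of 14 interferon response genes was 93.7, 112 and 138 in replicate 1 of Control_1d, Dnmt3a2_1d and Dnmt3a2_5d and 53.2 to 74.1 elsewhere. In bulk tissue, fewer cells of a type and less RNA per cell cannot be told apart. Levels below are CPM, which are not divided by transcript length and so compare libraries, not genes, and 4 values in a row are replicates 1 to 4.

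The members were spread widely in size of difference. The share of all measured genes whose libraries did not overlap and were lower with Dnmt3a2 was 1.78% at 1 day (301 genes), 3.28% at 5 days (555 genes) and 0.39% on both days. Log2 changes of the members (Dnmt3a2 against Control, from edgeR's quasi-likelihood fit) ran from -1.89 to -0.06 at 1 day with a median of -0.29, and from -2.26 to -0.06 at 5 days with a median of -0.33. The median over all 16899 genes tested was 0.0029 at 1 day and 0.0081 at 5 days. Of the members, 4 had a fitted log2 change under -1 on both days: Gm34466, Myod1, Gm13306 and Sla2. The difference was larger at 5 days in 32 members and larger at 1 day in 25.

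**Figure D1:**
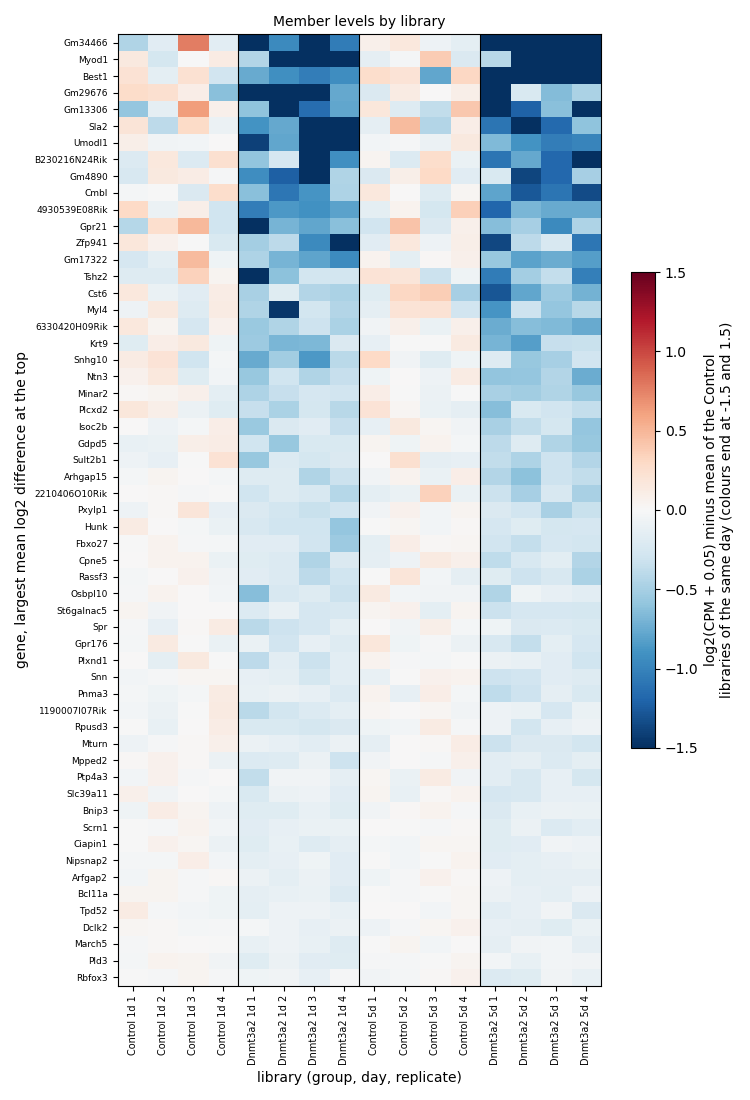
Level of each of the 57 members in each of the 16 libraries, as log2 of CPM plus a small constant minus the mean of the 4 Control libraries of the same day; rows are ordered by mean log2 difference and columns by group and replicate. Blue is below the Control mean: the upper rows, from Gm34466 to Myl4, are blue in most Dnmt3a2 columns, whereas the lowest rows, such as Pld3 and Rbfox3, are only faintly shaded.

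With an adjusted p under 0.05 over all genes tested (edgeR quasi-likelihood test with Benjamini-Hochberg adjustment), 2 members were among the genes called lower at 1 day, Umodl1 and Hunk, where 0.0355% of all genes were called lower (6 genes) and 0.0888% in either direction (15 genes). At 5 days 13 members were among those called lower, against 0.172% of all genes called lower (29 genes) and 0.32% in either direction (54 genes): Gm34466, Best1, Umodl1, Cmbl, 4930539E08Rik, Gm17322, 6330420H09Rik, Ntn3, Minar2, Arhgap15, St6galnac5, Snn and Mturn. Since these contrasts chose the members, nothing is read from those counts. Umodl1 was the 1 member called on both days.

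**Figure D2:**
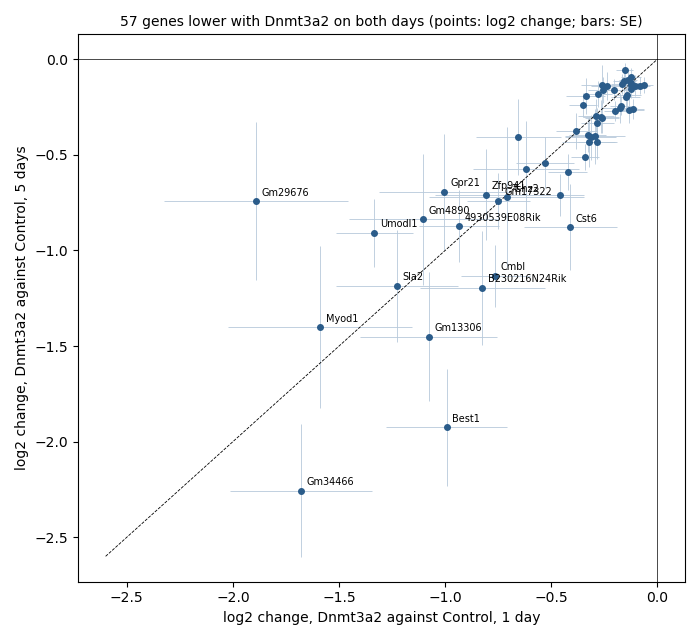
Log2 change with Dnmt3a2 against Control at 1 day (horizontal axis) and at 5 days (vertical axis) for the 57 members, with standard errors as bars and equality as a dashed line. Most points sit close to the line between -0.5 and 0, and Gm29676 (above the line) and Best1 (below it) lie farthest from it.

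Promoters of the members were compared with those of all tested genes, since promoter sequence took no part in choosing them. RefSeq promoter windows (GRCm38.p6, 250 bases before and 50 after the start) were matched for 44 of the 57 members and for 12203 tested genes. The members' windows held a median of 16 CpGs (range 1 to 44), and those of all tested genes a median of 20. A CpG-rich window, with at least 50% GC and a ratio of observed to expected CpG of at least 0.6, was present in 24 of the 44 members (54.5%) and in 64.2% of all tested genes. The 20 members without such a window included most of the larger differences: their median log2 change was -0.62 at 1 day and -0.71 at 5 days, and 13 had a mean log2 change under -0.5. The 24 members with one had medians of -0.21 and -0.21, and 3 had a mean log2 change under -0.5 (Gm4890, Myl4 and Snhg10). The 2 classes also differed in level: the median Control mean was 5.98 CPM in the CpG-poor and 37.7 CPM in the CpG-rich class. CpG content and level thus cannot be told apart here. The values behind these log2 changes also chose the members, and a gene with widely spread libraries needs a larger difference to pass the no-overlap rule. The contrast in size between the classes is therefore a description and carries no test. Some low members had small differences: 1190007I07Rik, 2210406O10Rik and Isoc2b, all CpG-rich, had Control means of 5.22, 3.06 and 3.61 CPM. Their log2 changes were -0.26, -0.29 and -0.32 at 1 day and -0.13, -0.40 and -0.43 at 5 days. The CpG-rich Gm4890, Myl4 and Snhg10 were lower still, with Control means of 0.617, 1.39 and 1.59 CPM, and had mean log2 changes of -0.97, -0.60 and -0.53. Sult2b1, CpG-poor with a Control mean of 6.05 CPM, had a mean log2 change of -0.36.

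The 250 bases before the RefSeq start are shown for 3 CpG-poor members with large differences (Gm34466, Sla2 and Tshz2) and 2 CpG-rich members with smaller ones (Plcxd2 and Mturn), each 5′ to 3′ on the strand of its gene, with each CpG in capitals. None of the 5 stretches overlaps an exon of the GENCODE M21 annotation.
Gm34466: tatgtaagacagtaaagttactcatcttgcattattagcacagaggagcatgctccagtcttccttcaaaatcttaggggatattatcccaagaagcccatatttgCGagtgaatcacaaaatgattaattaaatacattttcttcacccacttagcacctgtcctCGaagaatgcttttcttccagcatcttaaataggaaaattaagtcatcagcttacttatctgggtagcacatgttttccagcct
Sla2: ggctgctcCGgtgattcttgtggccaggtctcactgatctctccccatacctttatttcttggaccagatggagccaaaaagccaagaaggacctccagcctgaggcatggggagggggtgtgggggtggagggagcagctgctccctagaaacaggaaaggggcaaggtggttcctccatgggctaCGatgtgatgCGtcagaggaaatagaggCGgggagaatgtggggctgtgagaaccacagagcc
Tshz2: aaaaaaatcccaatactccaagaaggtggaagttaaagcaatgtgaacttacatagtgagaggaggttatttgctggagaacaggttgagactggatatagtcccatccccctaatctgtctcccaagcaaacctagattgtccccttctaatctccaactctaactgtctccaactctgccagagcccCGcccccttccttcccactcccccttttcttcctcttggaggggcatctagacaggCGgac
Plcxd2: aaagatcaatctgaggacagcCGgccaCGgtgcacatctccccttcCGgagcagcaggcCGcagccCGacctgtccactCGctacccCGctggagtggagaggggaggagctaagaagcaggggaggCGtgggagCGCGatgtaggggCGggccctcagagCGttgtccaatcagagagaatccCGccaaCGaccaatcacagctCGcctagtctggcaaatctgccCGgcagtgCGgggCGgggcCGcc
Mturn: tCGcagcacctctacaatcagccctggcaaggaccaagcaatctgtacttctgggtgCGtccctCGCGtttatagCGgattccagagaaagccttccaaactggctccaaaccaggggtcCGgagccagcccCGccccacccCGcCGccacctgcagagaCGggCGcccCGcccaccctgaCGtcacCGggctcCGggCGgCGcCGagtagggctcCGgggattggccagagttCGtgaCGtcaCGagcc
Within these 250 bases Gm34466 (chr13:45267773-45268022, minus strand) has 2 CpGs, Sla2 (chr2:156887222-156887471, minus strand) has 4 and Tshz2 (chr2:169632259-169632508, plus strand) has 2. Plcxd2 (chr16:46010414-46010663, minus strand) has 19 and Mturn (chr6:54681374-54681623, plus strand) has 22, and the Mturn stretch holds TGACGTCA, the cAMP response element, 2 times. Over the 300-base windows, on either strand, TGACGTCA was present in 1 of 44 members (2.27%) and in 3.11% of tested genes, and its core TGACG, which the full element contains, in 27.3% of members and 30.0% of tested genes. TATAAA was in 4.55% and 7.32%, the E-box CACGTG in 9.09% and 9.72%, and GCGTGGGCG, the Egr1 motif, in 0 of 44 members and 1.21% of tested genes. None of these shares is a test of binding.

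**Figure D3:**
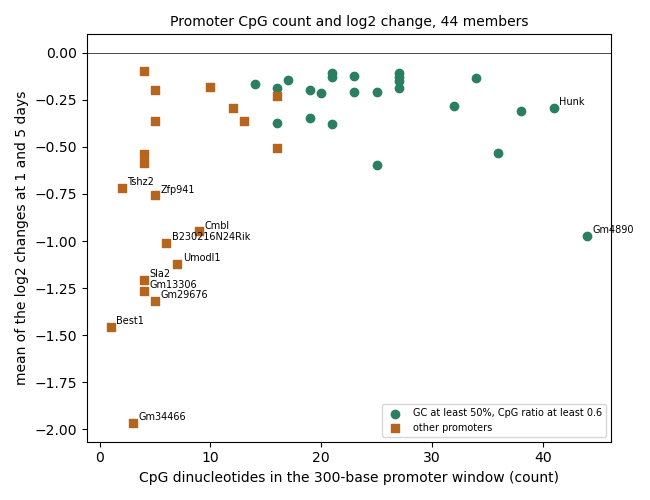
CpG count in the 300-base RefSeq promoter window (horizontal axis) against the mean of the 1 day and 5 day log2 changes (vertical axis) for the 44 members with a window; green circles are CpG-rich windows and brown squares all others. Members with a mean log2 change under -1 all have under 10 CpGs, and Gm4890, with 44 CpGs, is the CpG-rich member with the largest difference.

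Among 8 members grouped here as membrane or secreted proteins, log2 changes ran from -1.33 to -0.14 at 1 day and from -1.92 to -0.16 at 5 days. Umodl1 (uromodulin-like 1, a protein with a zona pellucida domain; chr17:30954640-31010710) was the 1 called on both days. It measured 3.26, 2.97, 2.99 and 3.09 CPM in Control and 1.13, 1.77, 1.03 and 0.936 CPM in Dnmt3a2 libraries at 1 day. The 5 day Umodl1 values were 2.77, 2.82, 2.68 and 3.15 CPM in Control and 1.78, 1.51, 1.37 and 1.41 CPM with Dnmt3a2. The Controls of both days lay close together, all Dnmt3a2 libraries were well under them, and the log2 change was -1.33 (SE 0.18) at 1 day and -0.91 (SE 0.18) at 5 days.

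Ntn3 (netrin 3, a secreted guidance cue for growing axons; chr17:24203848-24209531) stood at 12.4, 13.3, 10.5 and 11.6 CPM in Control and 7.97, 9.61, 8.65 and 9.36 CPM in Dnmt3a2 libraries at 1 day. Values of Ntn3 at 5 days were 12.1, 12.7, 12.04 and 13.8 CPM in Control and 8.35, 8.46, 9.31 and 7.53 CPM with Dnmt3a2. The gap between the groups was wider at 5 days, with log2 changes of -0.42 (SE 0.09) and -0.59 (SE 0.09). The other 3 netrin genes measured (Ntn1, Ntn4 and Ntn5) had median log2 changes of -0.13 at 1 day (-0.51 to -0.02) and -0.10 at 5 days (-0.68 to 0.10), so the lowest of them was below Ntn3 on both days. Ntn3 overlaps Tbc1d24 on the same strand, whose log2 changes were -0.0078 and -0.0019.

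Minar2 (a membrane protein named for its association with NOTCH2, and needed for hearing in mice) was at 24.9, 25.4, 26.0 and 22.2 CPM in Control and 17.9, 19.3, 20.6 and 20.1 CPM in Dnmt3a2 libraries at 1 day. Minar2 at 5 days was at 28.4, 26.2, 24.7 and 26.2 CPM in Control and 18.8, 18.4, 19.2 and 17.7 CPM with Dnmt3a2. All 8 Dnmt3a2 libraries lay between 17.7 and 20.6 CPM and all 8 Controls between 22.2 and 28.4 CPM. The log2 change was -0.34 (SE 0.07) at 1 day and -0.51 (SE 0.07) at 5 days, while its relative Minar1 had log2 changes of 0.22 and 0.28 that did not pass the adjusted threshold.

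Gpr21, an orphan G protein-coupled receptor whose gene lies inside Rabgap1 (chr2:37516332-37520603), was at 0.758, 1.25, 1.48 and 0.833 CPM in Control and 0.275, 0.625, 0.586 and 0.659 CPM in Dnmt3a2 libraries at 1 day. The Gpr21 levels at 5 days were 0.768, 1.29, 0.810 and 1.01 CPM in Control and 0.594, 0.658, 0.467 and 0.672 CPM with Dnmt3a2. These are levels of about 1 CPM with a wide spread among Controls, and the log2 changes were -1.003 (SE 0.31) and -0.69 (SE 0.30). Rabgap1, on the same strand, had log2 changes of 0.03 and 0.07. The other 52 Gpr genes tested had median log2 changes of -0.05 (-0.86 to 0.72) at 1 day and 0.03 (-0.99 to 1.26) at 5 days. Best1 (bestrophin 1, a calcium-activated chloride channel) was singled out after its values were seen: it was at 1.05, 0.809, 1.06 and 0.729 CPM in Control and 0.515, 0.452, 0.413 and 0.451 CPM in Dnmt3a2 libraries at 1 day. At 5 days Best1 was at 1.07, 1.03, 0.493 and 1.11 CPM in Control and 0.264, 0.230, 0.200 and 0.269 CPM with Dnmt3a2, the last being 6 to 8 counts a library. The 5 day Dnmt3a2 libraries were the lowest of the 4 groups and Control_5d replicate 3 was under the other Controls, with log2 changes of -0.99 (SE 0.28) and -1.92 (SE 0.31). The remaining members of this kind were Plxnd1 (a semaphorin receptor), Gpr176 (an orphan G protein-coupled receptor) and Slc39a11 (a zinc transporter), with log2 changes of -0.26 to -0.14 at 1 day and -0.26 to -0.16 at 5 days.

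**Figure D4:**
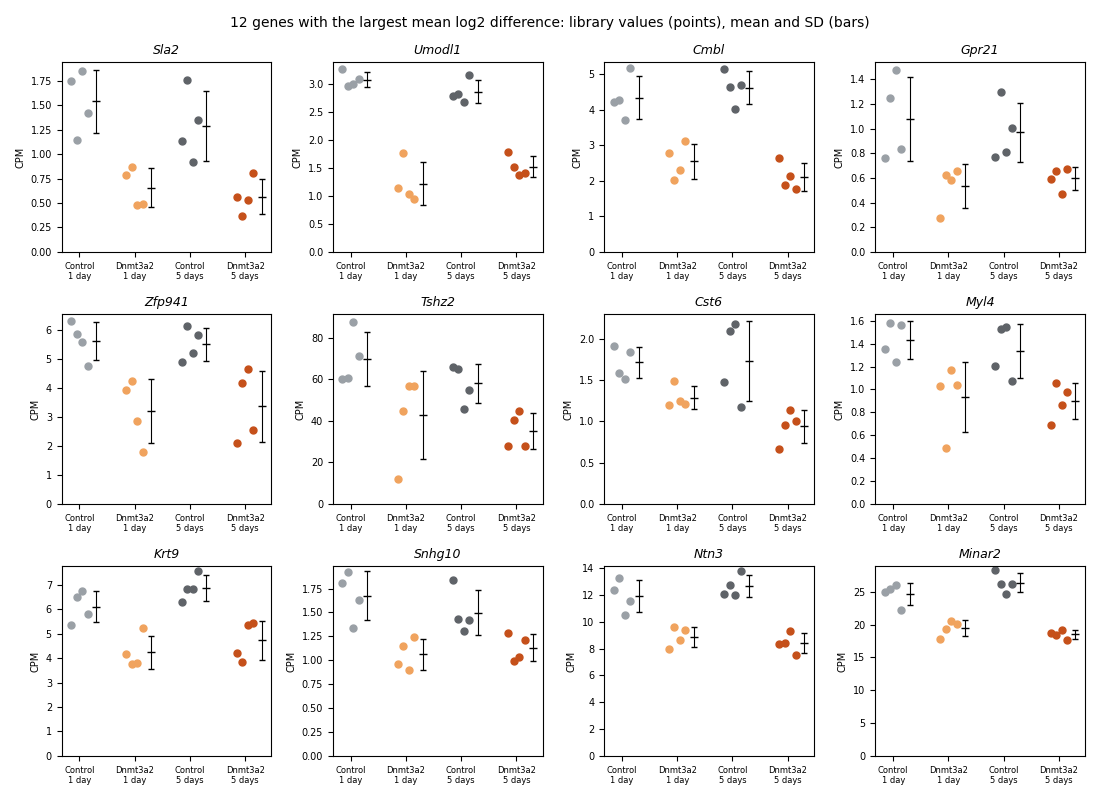
CPM in every library for the 12 members with an established name, a Control mean of at least 1 CPM and the largest mean log2 difference; points are replicates 1 to 4 from left to right and bars the mean and SD of the 4 libraries of a group, on axes that start at 0. Umodl1, Ntn3 and Minar2 have tight groups with a clear gap, whereas Tshz2 has 1 library, Dnmt3a2_1d replicate 1, at 12.1 CPM, far under the rest.

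Among 9 kinases, phosphatases, GTPase regulators and signalling adaptors, log2 changes ran from -1.23 to -0.08 at 1 day and from -1.19 to -0.13 at 5 days. Hunk (an AMPK-related serine/threonine kinase first described in mammary tissue; chr16:90386013-90499553) was at 67.1, 62.1, 60.4 and 57.7 CPM in Control and 52.1, 50.3, 50.3 and 41.4 CPM in Dnmt3a2 libraries at 1 day. Hunk stood at 63.7, 64.8, 61.7 and 64.7 CPM in Control and 53.5, 56.1, 53.1 and 53.3 CPM with Dnmt3a2 at 5 days. Both days showed a clear gap, and the log2 change was -0.35 (SE 0.06) at 1 day and -0.24 (SE 0.06) at 5 days. Of the 16 AMPK-related kinases tested, Hunk included, edgeR called 1 lower at 1 day (Hunk) and 0 at 5 days, when 1 had an unadjusted p under 0.05 and DESeq2 called 1. On each day 8 of the 16 had log2 changes below 0, with medians of -0.00025 at 1 day and 0.0067 at 5 days.

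Sla2 (Src-like adaptor 2, which dampens antigen receptor signalling in lymphocytes; chr2:156872457-156887192) had the lowest mean log2 change among the members with an established name and at least 1 CPM in Control. It was at 1.75, 1.15, 1.85 and 1.42 CPM in Control and 0.790, 0.868, 0.482 and 0.485 CPM in Dnmt3a2 libraries at 1 day. The 5 day Sla2 values were 1.14, 1.76, 0.915 and 1.35 CPM in Control and 0.561, 0.362, 0.534 and 0.807 CPM with Dnmt3a2. Values within each group were widely spread at this low level, and the log2 changes were -1.23 (SE 0.29) and -1.19 (SE 0.29). Arhgap15 (a GTPase-activating protein for Rac1; chr2:43748824-44395953) was at 10.8, 11.3, 11.1 and 10.8 CPM in Control and 9.62, 9.61, 7.99 and 8.80 CPM in Dnmt3a2 libraries at 1 day. Values of Arhgap15 at 5 days were 10.3, 11.1, 9.93 and 11.4 CPM in Control and 7.83, 6.94, 8.58 and 8.20 CPM with Dnmt3a2. The groups were separate on both days, more widely at 5 days, with log2 changes of -0.29 (SE 0.09) and -0.43 (SE 0.09). The other 29 Arhgap genes tested had median log2 changes of 0.05 and 0.06.

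Dclk2 (doublecortin-like kinase 2, a microtubule-binding kinase; chr3:86786151-86920852) differed far less. It was at 121, 119.9, 116 and 117 CPM in Control and 116, 112, 108 and 112 CPM in Dnmt3a2 libraries at 1 day. Dclk2 at 5 days was at 112, 117, 121 and 124 CPM in Control and 109, 108, 104 and 110.0 CPM with Dnmt3a2. The groups lay next to each other without overlap, with log2 changes of -0.08 (SE 0.04) and -0.14 (SE 0.04); Dclk1 and Dclk3 had a median of 0.05 and 0.08 on the 2 days. The others of this kind were Ptp4a3 (a protein tyrosine phosphatase), Rassf3 (a RAS association domain protein), Arfgap2 (a GTPase-activating protein of Golgi transport), Cpne5 (a calcium-dependent membrane-binding copine) and Mpped2 (a metallophosphoesterase), with log2 changes of -0.27 to -0.13 at 1 day and -0.31 to -0.13 at 5 days. A list of 21 exchange factors and activating proteins for small GTPases, which holds none of the members, had median log2 changes of -0.02 and -0.0038. In that list edgeR called 0 genes on either day, 1 gene at 1 day and 5 at 5 days had an unadjusted p under 0.05, and DESeq2 called 0.

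The 7 members that handle lipids, glycolipids or glycans had log2 changes of -0.38 to -0.15 at 1 day and -0.41 to -0.06 at 5 days. St6galnac5 (a brain sialyltransferase that builds alpha-series gangliosides; chr3:152817081-152982246) was at 213, 198, 207 and 207 CPM in Control and 179.6, 191, 173 and 175 CPM in Dnmt3a2 libraries at 1 day. The St6galnac5 levels at 5 days were 232, 234, 203 and 232 CPM in Control and 181, 189, 189 and 188 CPM with Dnmt3a2. Control_5d replicate 3 was below the other 5 day Controls but still above all Dnmt3a2 libraries, and the log2 changes were -0.20 (SE 0.05) and -0.27 (SE 0.05). The other 4 St6galnac genes had medians of -0.0088 (-0.12 to 0.13) at 1 day and -0.14 (-0.33 to -0.0056) at 5 days. The lowest of them was thus below St6galnac5 at 5 days.

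Pld3 (a nuclease of the endolysosome; chr7:27532000-27553218) had the highest Control mean of all members, 612 CPM. It was at 596, 630.0, 625 and 589 CPM in Control and 539, 572, 541 and 539 CPM in Dnmt3a2 libraries at 1 day. Pld3 stood at 607, 604, 611 and 631 CPM in Control and 597, 568, 597 and 592 CPM with Dnmt3a2 at 5 days. The gap at 5 days was narrow, and the log2 change was -0.15 (SE 0.04) at 1 day and -0.06 (SE 0.04) at 5 days. The other 5 Pld genes tested had median log2 changes of 0.12 (-0.33 to 0.57) at 1 day and -0.04 (-0.52 to 0.12) at 5 days. Plcxd2 (a phospholipase C X-domain protein), Gdpd5 (a glycerophosphodiesterase that acts in motor neuron differentiation), Osbpl10 (an oxysterol-binding protein relative), Sult2b1 (a cholesterol sulfotransferase) and Pxylp1 (a phosphatase of proteoglycan synthesis) had log2 changes of -0.38 to -0.28 at 1 day and -0.41 to -0.19 at 5 days. A list of 22 genes of phospholipid and diacylglycerol signalling, none of them members, had median log2 changes of -0.0077 and 0.01. In it edgeR called 0 genes on either day, 3 at 1 day and 5 at 5 days had an unadjusted p under 0.05, and DESeq2 called 0.

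The 5 nuclear members had log2 changes of -1.59 to -0.06 at 1 day and -1.40 to -0.11 at 5 days. Tshz2 (teashirt 2, a zinc finger transcription factor that in mouse marks deep-layer neocortical and retrosplenial neurons; chr2:169633013-170071816) was at 60.2, 60.4, 87.4 and 70.9 CPM in Control and 12.1, 44.8, 56.7 and 56.9 CPM in Dnmt3a2 libraries at 1 day. The 5 day Tshz2 values were 66.0, 65.1, 45.7 and 55.0 CPM in Control and 27.7, 40.2, 44.6 and 28.0 CPM with Dnmt3a2. Dnmt3a2_1d replicate 1 was far below every other library, and Dnmt3a2_5d replicates 1 and 4 were the next lowest. The log2 changes were -0.71 (SE 0.36) and -0.72 (SE 0.37), and -0.40 at 1 day without Dnmt3a2_1d replicate 1, the library with a choroid plexus sum of 887 CPM. Tshz1 and Tshz3 had log2 changes of -0.13 to 0.14 at 1 day and -0.11 to 0.02 at 5 days.

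Tshz2 belongs to a list of neocortical markers, tissue that borders the dissected hippocampus. Of its 20 tested markers, Tshz2 included, 9 had log2 changes below 0 at 1 day and 13 at 5 days. The median log2 changes were 0.03 and -0.04. The values that chose Tshz2 are thus part of these counts and of the sum below. Mean Tshz2 levels were 69.7 CPM in Control_1d and 42.6 CPM in Dnmt3a2_1d, and 57.9 CPM in Control_5d and 35.1 CPM in Dnmt3a2_5d. In that list edgeR called 0 on either day, 5 had an unadjusted p under 0.05 on each day, and DESeq2 called 1 on each. Their summed CPM was 602 to 736 in Control_1d and 596 to 661 in Dnmt3a2_1d, and 615 to 698 in Control_5d and 605 to 673 in Dnmt3a2_5d, so the groups overlapped on both days; the marker Ctgf was not among the tested genes. The summed CPM of 10 subiculum and ventral hippocampus markers did not overlap: 246 to 291 in Control_1d against 224 to 243 in Dnmt3a2_1d, and 242 to 272 in Control_5d against 197 to 230 in Dnmt3a2_5d. Of those 10 markers 8 were below 0 at 1 day and 7 at 5 days (medians -0.16 and -0.13), and 1 was called lower at 5 days. The sum of 8 tested striatum markers went the other way without overlap, at 170 to 196 CPM in Control_1d against 200 to 222 in Dnmt3a2_1d and 172 to 189 in Control_5d against 209 to 225 in Dnmt3a2_5d. Of these 8, 3 had log2 changes below 0 on each day, and the median log2 changes were 0.04 and 0.21. EdgeR called 1 higher at 1 day and 2 at 5 days. The part of these region markers in the differences of the members was not tested.

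Zfp941 (a zinc finger protein; chr7:140807449-140822178) was at 6.30, 5.83, 5.56 and 4.76 CPM in Control and 3.92, 4.24, 2.86 and 1.79 CPM in Dnmt3a2 libraries at 1 day. Values of Zfp941 at 5 days were 4.88, 6.11, 5.19 and 5.82 CPM in Control and 2.10, 4.15, 4.64 and 2.55 CPM with Dnmt3a2. Dnmt3a2 libraries were spread more widely than Controls, and the log2 changes were -0.81 (SE 0.24) and -0.71 (SE 0.24). The other 340 Zfp genes tested had median log2 changes of 0.02 (-1.19 to 2.06) and 0.03 (-0.57 to 1.27). Myod1, the transcription factor that starts skeletal muscle differentiation, lies under 1 CPM and was singled out after its values were seen. It was at 0.955, 0.708, 0.859 and 0.937 CPM in Control and 0.618, 0.174, 0.103 and 0.243 CPM in Dnmt3a2 libraries at 1 day. Myod1 at 5 days was at 0.768, 0.830, 1.13 and 0.728 CPM in Control and 0.627, 0.165, 0.267 and 0.235 CPM with Dnmt3a2. On both days replicate 1 of the Dnmt3a2 group (18 and 19 counts) was well above the other Dnmt3a2 libraries (3 to 8 counts), and Controls had 21 to 32 counts; the log2 changes were -1.59 (SE 0.43) and -1.40 (SE 0.42).

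Bcl11a (a zinc finger repressor that silences fetal globin in human erythroid cells and acts in cortical neuron development; chr11:24078056-24174123) was at 221, 221, 213 and 206 CPM in Control and 196, 199, 201 and 187 CPM in Dnmt3a2 libraries at 1 day. The Bcl11a levels at 5 days were 226, 223, 225 and 232 CPM in Control and 213, 207, 205 and 214 CPM with Dnmt3a2. The groups were close but apart on both days, with log2 changes of -0.14 (SE 0.04) and -0.11 (SE 0.04). Rbfox3, the splicing factor known as the neuronal marker NeuN (chr11:118489762-118911597), was at 429, 423, 441 and 425 CPM in Control and 410.0, 415, 396 and 423 CPM in Dnmt3a2 libraries at 1 day. Rbfox3 stood at 422, 427, 442 and 456 CPM in Control and 380.2, 386, 422 and 404 CPM with Dnmt3a2 at 5 days. The highest Dnmt3a2 and lowest Control libraries nearly touched on each day, with log2 changes of -0.06 (SE 0.04) and -0.13 (SE 0.04); Rbfox1 and Rbfox2 had medians of 0.07 and 0.02.

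The 8 metabolic and mitochondrial members had log2 changes of -0.76 to -0.12 at 1 day and -1.13 to -0.09 at 5 days. Cmbl (carboxymethylenebutenolidase homolog, a cytosolic hydrolase that activates some ester prodrugs in humans; chr15:31565389-31590119) stood apart from the other 7. It was at 4.22, 4.28, 3.71 and 5.17 CPM in Control and 2.78, 2.01, 2.31 and 3.12 CPM in Dnmt3a2 libraries at 1 day. The 5 day Cmbl values were 5.14, 4.65, 4.01 and 4.71 CPM in Control and 2.64, 1.88, 2.14 and 1.78 CPM with Dnmt3a2. All Dnmt3a2 libraries were under all Controls of either day, and the log2 changes were -0.76 (SE 0.16) and -1.13 (SE 0.16). Spr (sepiapterin reductase, which makes the cofactor of monoamine synthesis), Isoc2b (an isochorismatase domain protein), Bnip3 (a mitochondrial receptor for mitophagy), March5 (a ubiquitin ligase of the outer mitochondrial membrane), Nipsnap2 (a mitochondrial matrix protein), Ciapin1 (a protein of iron-sulfur cluster assembly) and Rpusd3 (a mitochondrial pseudouridine synthase) had log2 changes of -0.32 to -0.12 at 1 day and -0.43 to -0.09 at 5 days.

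Of 9 other proteins, log2 changes were -0.62 to -0.10 at 1 day and -0.88 to -0.14 at 5 days. Cst6 (cystatin E/M, an inhibitor of cysteine proteases; chr19:5344705-5349574) was at 1.91, 1.58, 1.51 and 1.84 CPM in Control and 1.203, 1.49, 1.24 and 1.21 CPM in Dnmt3a2 libraries at 1 day. Values of Cst6 at 5 days were 1.47, 2.09, 2.18 and 1.18 CPM in Control and 0.660, 0.955, 1.13 and 1.01 CPM with Dnmt3a2. The groups nearly met on both days, and the log2 changes were -0.41 (SE 0.22) and -0.88 (SE 0.23). Myl4 (an atrial and embryonic myosin light chain; chr11:104550663-104595753) was at 1.35, 1.58, 1.24 and 1.56 CPM in Control and 1.03, 0.486, 1.17 and 1.04 CPM in Dnmt3a2 libraries at 1 day. Myl4 at 5 days was at 1.203, 1.53, 1.55 and 1.07 CPM in Control and 0.693, 1.05, 0.868 and 0.975 CPM with Dnmt3a2. Dnmt3a2_1d replicate 2 was the lowest library, and the log2 changes were -0.62 (SE 0.25) and -0.57 (SE 0.25). The other 3 Myl genes tested had median log2 changes of 0.01 (0.00062 to 0.06) at 1 day and -0.05 (-0.88 to -0.0076) at 5 days.

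Krt9 (a keratin of palm and sole skin; chr11:100186781-100193246) was at 5.37, 6.51, 6.77 and 5.79 CPM in Control and 4.16, 3.75, 3.79 and 5.23 CPM in Dnmt3a2 libraries at 1 day. The Krt9 levels at 5 days were 6.28, 6.84, 6.83 and 7.56 CPM in Control and 4.23, 3.85, 5.37 and 5.45 CPM with Dnmt3a2. The highest Dnmt3a2 library lay just under the lowest Control at 1 day, and the log2 changes were -0.53 (SE 0.14) and -0.54 (SE 0.13). The other 13 keratin genes measured had median log2 changes of 0.0024 (-0.67 to 1.25) and 0.12 (-0.39 to 2.42). Snn (stannin, a small membrane protein tied to trimethyltin toxicity; chr16:11060945-11074985) was at 202, 204, 211 and 212 CPM in Control and 190.0, 188, 172 and 186 CPM in Dnmt3a2 libraries at 1 day. Snn stood at 191, 205, 215 and 214 CPM in Control and 167, 168, 183 and 179.6 CPM with Dnmt3a2 at 5 days. The groups were apart on both days, with log2 changes of -0.17 (SE 0.05) and -0.24 (SE 0.05).

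Scrn1 (secernin 1, known from mast cell exocytosis; chr6:54501173-54566489) and Mturn (maturin, a regulator of neural differentiation described in frog; chr6:54681624-54703851) lie 0.115 megabases apart, with 2 tested genes between them. Scrn1 was at 138, 137, 143 and 134 CPM in Control and 122, 127, 128 and 129 CPM in Dnmt3a2 libraries at 1 day. The 5 day Scrn1 values were 147, 145, 144 and 147 CPM in Control and 128, 137, 127 and 130.4 CPM with Dnmt3a2. The groups were apart on both days, the log2 changes were -0.13 (SE 0.04) and -0.16 (SE 0.04), and Scrn2 and Scrn3 were also below 0 on both days (median log2 changes -0.17 and -0.24). Mturn was at 157, 164, 168 and 176 CPM in Control and 157, 152, 149 and 157 CPM in Dnmt3a2 libraries at 1 day. Values of Mturn at 5 days were 148, 163, 164 and 175 CPM in Control and 129.5, 139, 139.5 and 134 CPM with Dnmt3a2. At 1 day the groups touched, at 5 days they were well apart, and the log2 changes were -0.11 (SE 0.05) and -0.26 (SE 0.05). Fbxo27 (an F-box protein that binds glycoproteins), Tpd52 (a tumour protein of vesicle traffic) and Pnma3 (a paraneoplastic antigen) had log2 changes of -0.29 to -0.10 at 1 day and -0.30 to -0.14 at 5 days.

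The 11 non-coding or uncharacterised members held the extremes, with log2 changes of -1.89 to -0.26 at 1 day and -2.26 to -0.13 at 5 days. Gm34466, a long intergenic RNA (chr13:45246632-45267711), was singled out after its values were seen, as the member with the largest mean difference. It was at 1.55, 1.89, 3.67 and 1.91 CPM in Control and 0.412, 1.08, 0.310 and 1.01 CPM in Dnmt3a2 libraries at 1 day. Gm34466 at 5 days was at 2.47, 2.62, 2.22 and 2.11 CPM in Control and 0.561, 0.329, 0.601 and 0.471 CPM with Dnmt3a2. Control libraries had 47 to 107 counts and Dnmt3a2 libraries 9 to 31, and the log2 changes were -1.68 (SE 0.33) and -2.26 (SE 0.35). Gm29676, another long intergenic RNA 0.966 megabases away with 2 tested genes between them, had log2 changes of -1.89 and -0.74 at a Control mean of 0.46 CPM.

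Snhg10 (a host gene of a small RNA of the Cajal body, Scarna13; chr12:105030617-105032279) was at 1.81, 1.92, 1.34 and 1.63 CPM in Control and 0.962, 1.15, 0.896 and 1.25 CPM in Dnmt3a2 libraries at 1 day. The Snhg10 levels at 5 days were 1.84, 1.43, 1.30 and 1.42 CPM in Control and 1.29, 0.987, 1.03 and 1.21 CPM with Dnmt3a2. The highest Dnmt3a2 library was close to the lowest Control on both days, and the log2 changes were -0.66 (SE 0.20) and -0.41 (SE 0.20); the other 12 Snhg genes had medians of 0.05 (-0.13 to 0.33) and 0.04 (-0.10 to 0.32). The remaining 9 (Gm29676, Gm13306, Gm4890, 4930539E08Rik, B230216N24Rik, Gm17322, 6330420H09Rik, 2210406O10Rik and 1190007I07Rik) had log2 changes of -1.89 to -0.26 at 1 day and -1.45 to -0.13 at 5 days. Gm17322 overlaps Cyp11a1 on the same strand, which had log2 changes of -0.66 and -0.88 beside -0.75 and -0.74 for Gm17322. B230216N24Rik overlaps Pam on the same strand (-0.23 and -0.20 for Pam). Shared exons were not examined, so how far the counting told reads of these pairs apart is not known, which leaves both values uncertain. Gm13306 has near-identical copies on its chromosome, and its value is uncertain, since how the counting divided reads among the copies is not known.

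The rule did not compare days, and the contrasts between days within a virus group were tested. They use the same library values as the rule, which genes with closely grouped libraries pass more easily. The members' counts beside the shares of all genes are therefore a description. Between 1 and 5 days in Control, 29 members had log2 changes below 0 and 28 above, the median was -0.00071, and 0 were called by edgeR, as in 0% of all genes; 2 members had an unadjusted p under 0.05, beside 3.54% of all genes, and DESeq2 called 0 members. The 3 with the smallest p were St6galnac5 with a log2 change of 0.13 (SE 0.05), Rpusd3 with -0.16 (SE 0.07) and Nipsnap2 with 0.10 (SE 0.05), each with an edgeR adjusted p of 0.999. In the Dnmt3a2 libraries the median day change was -0.02, and 0 members were called by edgeR (0% of all genes). An unadjusted p under 0.05 was found in 7 (4 lower and 3 higher, beside 10.8% of all genes). DESeq2 called 48 of 16899 genes and 0 members in these libraries, and nothing is read from the 0 at so small a share. Mturn had the smallest p there, at -0.18 (SE 0.05, adjusted p = 0.301 by edgeR), followed by Best1 with -0.91 (SE 0.32, edgeR adjusted p = 0.337) and Pld3 with 0.10 (SE 0.04, edgeR adjusted p = 0.379).

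The difference between the 2 days in the Dnmt3a2 effect is made of the contrasts that chose the members, which had to be below 0 on both days, so it is given as a description. It had a median of -0.01 over the members, was below 0 in 32 and above 0 in 25, and ran from -0.93 (Best1) to 1.15 (Gm29676). Over all genes tested, edgeR called 0% for this contrast, 2.13% had an unadjusted p under 0.05, and DESeq2 called 1 gene.

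No member lay on chromosome 14, which held 3.59% of tested genes. Chromosome 7 held 9 (15.8%, against 7.80% of tested genes) and chromosome 2 held 7 (12.3% against 7.70%). Chromosomes 6 and 11 held 5 each (8.77%, against 4.98% and 7.66% of tested genes). Close pairs besides Scrn1 and Mturn were 4930539E08Rik and Cpne5, 0.24 megabases apart on chromosome 17, and Sult2b1 and Myod1, 0.592 megabases apart on chromosome 7. Between them lay 5 and 14 tested genes, respectively. The longest transcript of a member had a median of 3273 bases and 51.2% GC, against 3233 bases and 49.7% GC over all tested genes. Another annotated gene overlapped 36 members, and a tested gene overlapped 14. Of the 17 overlapping tested genes, 9 had log2 changes below 0 on both days, some of them close to 0. Over all tested genes, 49.1% were below 0 at 1 day and 47.2% at 5 days, and the share on both days was not computed. Overlap was taken over whole gene spans, introns included, and shared exons were not examined. The labels do not say whether counting used strand, so how far reads of overlapping genes were told apart is not known.

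Membership at the edge of the rule rests on small margins. Rbfox3, Mturn and March5 were just inside: at 1 day the lowest Control and highest Dnmt3a2 library of Rbfox3 were at 423.0 and 422.8 CPM, those of Mturn at 157.2 and 157.1 CPM, and at 5 days those of March5 at 55.9 and 55.8 CPM. Reep1, Plp2 and Gm10642 were just outside, each through 1 day: Reep1 at 1 day had 85.2 CPM in both its lowest Control and highest Dnmt3a2 library, as did Plp2 at 4.43 CPM and Gm10642 at 0.694 CPM. Under 3 other scalings of the counts 43 of the 57 members stayed, and 34 also stayed when GC content and transcript length were removed (an alternative chosen after seeing the data). Of the 22 genes given in full by the naming rule, 14 stayed in all 4 settings, and Cst6, Myl4, Snhg10, Mturn, Bcl11a, Dclk2, Pld3 and Rbfox3 did not. The median of the mean log2 change was -0.40 among the 34 and -0.20 among the 23 lost in at least 1 setting.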

How the data were processed

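RNA of 16 dorsal hippocampus libraries was extracted with a column kit and went into BGISEQ-500 libraries, per the labels. Tools listed in the submitters' processing notes are edgeR 3.17, kallisto 0.4.6 and Trim Galore 0.6.4, with the build GRCm38.p6; their roles, the annotation and the strand setting are not given there. The authors deposited estimated counts per gene for 55385 genes (26.2% of values were not whole) and log2 CPM for 16907 genes. Both were read as deposited, and the log2 CPM recomputed here with TMM factors differed by 0. The linear CPM printed were computed here from the counts without a prior count.

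Members were found on the deposited log2 CPM by the no-overlap rule. The members and gene lists were chosen with earlier results of these data known. Counts were rounded and fitted over all 16 libraries with edgeR 4.0.16 (R 4.3.3; filterByExpr, TMM, robust quasi-likelihood, 1 term per group), and p-values were adjusted by Benjamini-Hochberg over 16899 genes. The fit was tested on simulated data. DESeq2 1.42.0, limma-voom 3.58.1, other scalings, filters and left-out libraries were alternatives. A gene was called at an adjusted p under 0.05. Given in full were members with an established symbol and at least 1 CPM in Control that had the 12 largest mean log2 differences, the 8 highest Control means, the 6 widest gaps or a place in a gene list; Gm34466, Myod1 and Best1 were added after their values were seen. Names came from GENCODE M21 for 16887 tested genes, and promoters from RefSeq. No pair of libraries agreed within sampling noise. No column of the files was left unused.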

Additional observations from a re-analysis of the deposited data

Results flagged for a closer look

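Within the 4 libraries of a group, 1 library lay far from the other 3 in 8 of 100 group and gene combinations checked; chance alone gives about 1 in 20. Cst6 was at 1.49 CPM in Dnmt3a2_1d replicate 2, above the other 3 libraries of that group and just under the lowest Control. Hunk was at 41.4 CPM in Dnmt3a2_1d replicate 4, below its group, and at 56.1 CPM in Dnmt3a2_5d replicate 2, above its group. St6galnac5 was at 203 CPM in Control_5d replicate 3, below the other Controls of that day. Pld3 was at 572 CPM in Dnmt3a2_1d replicate 2, above its group, and at 568 CPM in Dnmt3a2_5d replicate 2, below its group. Gm34466 was at 3.67 CPM in Control_1d replicate 3, above its group. Best1 was at 0.493 CPM in Control_5d replicate 3, below its group; that library also had a choroid plexus marker sum of 214 CPM, whose part in the value was not tested.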

How the results depend on the processing

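The choice of members fixes the direction of their differences, so an unchanged sign under another setting is no sign of stability. The median log2 change of the members lay between -0.33 and -0.29 at 1 day and between -0.36 and -0.32 at 5 days when 1 library was left out. The count of 57 members was 129 without replicate 1 of both Dnmt3a2 groups and 181 without the 3 interferon-rich libraries (chosen after seeing the data), and 64 to 97 when 1 library was left out (89 without Control_1d replicate 1, 97 without Control_1d replicate 4, 90 without Dnmt3a2_1d replicate 1, 87 without Dnmt3a2_1d replicate 4 and 86 without Dnmt3a2_5d replicate 1); with fewer libraries the no-overlap rule is easier to meet. The share of genes lower without overlap was 1.78% to 3.77% at 1 day and 3.28% to 6.21% at 5 days with 1 library left out, 2.82% and 6.21% without replicate 1 of both Dnmt3a2 groups, 4.92% and 6.21% without the 3 interferon-rich libraries, and 1.06% at 1 day without the low-value filter. Other scalings gave 55 (DESeq2 size factors), 55 (no scaling factor) and 65 (upper-quartile factors) members, and removing GC content and length (chosen after seeing the data) gave 70.

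At 1 day, where edgeR called 15 genes and 2 members, DESeq2 called 65 and 14, no low-count filter gave 34 and 6, an adjusted p under 0.10 gave 23 and 7, the 8 libraries of the day alone gave 7 and 1, and leaving out replicate 1 of both Dnmt3a2 groups gave 4 members. Leaving out 1 library gave 6 to 22 genes and 1 to 5 members. At 1 day, 6 genes were called without Control_1d replicate 2 and 7 without Dnmt3a2_1d replicate 3; members numbered 5 without Dnmt3a2_1d replicate 4, 4 without Dnmt3a2_1d replicate 1 or Control_1d replicate 4, and 1 without Dnmt3a2_1d replicate 3, Dnmt3a2_5d replicate 3, Control_1d replicates 2 or 3, or Control_5d replicates 1 or 2. At 5 days, where 54 genes and 13 members were called, DESeq2 gave 143 and 23, an adjusted p under 0.10 gave 104 genes, the 8 libraries of the day alone 94, and the fit without replicate 1 of both Dnmt3a2 groups 90. Leaving out 1 library gave 22 to 82 genes and 6 to 14 members: 33 genes without Dnmt3a2_5d replicate 3, 22 without Dnmt3a2_5d replicate 4, 29, 30 and 26 without Control_5d replicates 1, 3 and 4, and 82 without Control_1d replicate 3; and 8 and 6 members without Dnmt3a2_5d replicates 2 and 4, and 8, 7, 8 and 6 without Control_5d replicates 1 to 4. Between days in the Dnmt3a2 libraries, where edgeR called 0 genes, DESeq2 called 48, no low-count filter gave 6, and leaving out 1 library gave 0 to 1, the 1 without Dnmt3a2_5d replicate 1; for the difference between days DESeq2 called 1. In the main fit 0.0888% of all genes were called at 1 day and 0.32% at 5 days. The Dnmt3a2 against Control contrasts chose the members, so nothing is read from the counts of members called in them. The cause of the moves between settings was not tested.

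Replicate numbers are shared between groups, but the labels do not say that they pair libraries, and of 24 same-numbered pairs only 8 had deviations correlated above 0.1 (r from -0.09 to 0.38), and 6 of 16 libraries correlated best with their own number. With the replicate number as a block, 17 genes and 2 members were called at 1 day and 65 genes and 12 members at 5 days. Members under 1 CPM, such as Myod1 with 3 to 32 counts a library, rest on few counts, and a small difference is not detectable at that depth.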
